A study of Homo sapiens with 12 samples.

Results

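The ephrins, their Eph receptors, the semaphorins and the plexins were followed through 12 RNA-seq libraries of a breast cancer line, MDA-MB-468, which is of human origin and triple negative. Members were the genes whose symbols are those of ephrin A or B, EphA or EphB, semaphorin classes 3 to 7 or plexin A to D genes, together with the plexin-domain genes PLXDC1 and PLXDC2. The rule found 53 members among the 23228 genes of the deposited tables, and it used names only, not measured values. The families themselves were chosen with earlier results of these data known. All cells belonged to a line engineered to make ERβ1, the full-length form of estrogen receptor beta encoded by ESR2, when doxycycline is added, so the controls carry the inducible gene too. There were 4 groups of 3 libraries. Induced E2 cells received doxycycline (50 ng/mL) for 48 h and then 17β-estradiol (E2, 10 nM) for 4 h. Induced vehicle cells received the same doxycycline and then 0.1% DMSO. Uninduced E2 cells received the estradiol and uninduced vehicle cells the DMSO, both without doxycycline. Before that, every group was grown without phenol red in charcoal-stripped serum, which holds little steroid (10% for 3 days, then 5%). No doxycycline-treated cells without the inducible gene were analysed here, so doxycycline and the receptor it induces cannot be told apart. The labels do not say whether the triplicates came from separate cultures or whether the line is 1 clone, so the p-values cover no more than the spread among the 12 libraries, which may be technical.

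Ephrins are ligands held at the cell surface, and Eph receptors are the receptor tyrosine kinases that bind them when cells touch. A-type ephrins are anchored by a lipid and B-type ephrins span the membrane, and signals pass into both the receptor cell and the ligand cell. In breast epithelium this system takes part in sorting and repelling cells, and EPHA2 and EPHB4 are well-studied receptors in breast tumours. Semaphorins were found as repellents of growing axons, and class 3 members are secreted while classes 4 to 7 are held at the membrane. Plexins are their receptors, and neuropilins serve as co-receptors for most class 3 semaphorins. SEMA3B and SEMA3F lie in a region of the short arm of chromosome 3 that is often lost in lung and breast cancers.

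ESR2 was measured at 116, 98.6 and 98.0 counts per 1000000 counts (CPM, scaled by the TMM method to make libraries comparable) in induced E2 cells and at 134, 113 and 115 CPM in induced vehicle cells. It was 2.26, 1.28 and 1.27 CPM in uninduced E2 cells and 1.37, 1.06 and 1.47 CPM in uninduced vehicle cells, so the libraries match their doxycycline labels. Nothing in the files checks the E2 label of the uninduced libraries. Total expected counts lay between 7889310 and 33326849 per library. The 10 markers of basal breast epithelial cancer cells summed to 8017 to 8392 transcripts per 1000000 (TPM) in induced E2 cells. Their sum was 7412 to 7567 TPM in induced vehicle, 7170 to 7592 TPM in uninduced E2 and 7415 to 7747 TPM in uninduced vehicle cells. KRT8 (median 2668 TPM) and KRT18 (median 1818 TPM) supplied most of it, while VIM (7.52 to 14.7 TPM) and KRT6B (9.14 to 25.3 TPM) were low. Of the markers of other cell types, DCN, LUM and MS4A1 were at 0 in all 12 libraries and PTPRC reached 0.134 TPM, but CD14 (30.2 to 52.2 TPM), CD68 (5.18 to 10.3 TPM), COL1A1 (7.03 to 9.27 TPM) and MBP (8.20 to 11.9 TPM) were measured in every library. The summed level of 5 immune markers was 40.5 to 45.4 TPM in induced E2 cells against 46.8 to 59.4 TPM in induced vehicle cells. It was 46.3 to 55.3 TPM in uninduced E2 cells and 44.4 to 55.6 TPM in uninduced vehicle cells. For 5 markers of neurons and glia the sum was 12.3 to 13.1 TPM in induced E2 cells against 10.3 to 11.1 TPM in induced vehicle cells. In uninduced E2 cells that sum was 9.46 to 10.2 TPM and in uninduced vehicle cells 9.23 to 11.1 TPM. The summed level of 4 endothelial markers was 2.01 to 3.29 TPM in induced E2 cells against 0.676 to 0.932 TPM in induced vehicle cells, 0.486 to 0.702 TPM in uninduced E2 cells and 0.606 to 0.988 TPM in uninduced vehicle cells. VWF supplied most of this, reaching 2.9 TPM, while CDH5 reached 0.198 TPM at most, and the part of these markers in the results was not tested. ESR1, the gene of estrogen receptor alpha, was measured in every library at 1.07 to 2.10 TPM. On the same scale ESR2 averaged 1.61 TPM in uninduced E2 cells and 1.39 TPM in uninduced vehicle cells. The part of ESR1 in the E2 differences was not tested.

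A count filter left 44 of the 53 members for testing. EPHA3, EPHA5, EPHA7, EPHB1, PLXNA4, SEMA3D, SEMA5A, SEMA6A and SEMA6D failed it, and EPHA5, EPHA7 and SEMA3D had no count in any library. On the per-length scale, which allows levels of different genes to be compared, 36 members averaged at least 1 TPM and 17 less. PLXNB2, a plexin that binds class 4 semaphorins, was the most abundant member at a mean of 178 TPM over the 12 libraries. The secreted ligand SEMA3F followed at 68.7 TPM, the receptor EPHB4 at 67 TPM, the ligand EFNA1 at 57.8 TPM and the ligand EFNB2 at 50.8 TPM. SEMA3F, EPHB4 and EFNA1 do not keep this order in every group. SEMA3F averaged 111 ± 1.34 TPM in induced E2 cells against 60.1 ± 1.76 TPM in induced vehicle cells, 51.5 ± 3.09 TPM in uninduced E2 cells and 52.1 ± 2.11 TPM in uninduced vehicle cells (SD, n = 3 each). EFNA1 averaged 34.0 ± 0.726 TPM in induced E2 cells against 59.2 ± 2.41 TPM in induced vehicle cells, 69.6 ± 1.77 TPM in uninduced E2 cells and 68.4 ± 3.17 TPM in uninduced vehicle cells. In induced E2 cells SEMA3F, EPHB2 and SEMA3B were thus each higher per length than EFNA1, whereas in the uninduced groups EFNA1 stood above all 3. The members' summed level stayed between 887 and 992 TPM in all 12 libraries.

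**Figure D1:**
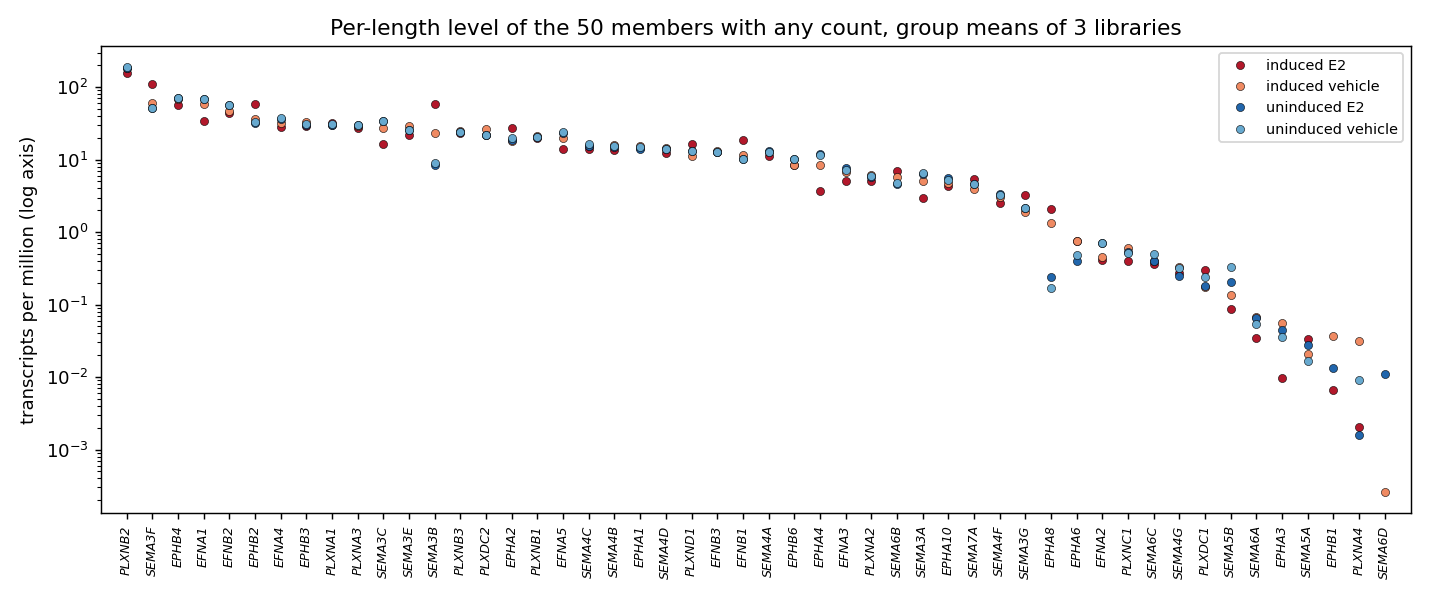
Mean level of the 50 members with any count, in TPM on a log axis, in each of the 4 groups (3 libraries per mean; a mean of 0 is not drawn). Members are ordered by their mean over all libraries, from PLXNB2 (178 TPM) downwards. The induced E2 points part from the rest at SEMA3F, SEMA3B and EPHB2 (above) and at EFNA1, SEMA3C and EPHA4 (below).

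With the receptor induced, estradiol changed 17 of the 44 tested members, 9 upward and 8 downward, after 4 h (edgeR quasi-likelihood test, Benjamini-Hochberg adjusted p under 0.05 over all 14541 genes tested). That is 38.6% of the tested members, where 16.5% of all tested genes were called in this comparison (9.85% higher and 6.61% lower). The families were chosen with earlier results of these data known, so such shares describe them and test nothing. Upper quartile scaling moved the split of all genes called to 1258 higher and 1206 lower, against 1433 and 961 with TMM, and that of members to 9 and 9. The median log2 difference of the members was −0.12, against −0.005 over all genes tested. Doxycycline changed 7 members without E2 (3 higher, 4 lower), against 3.81% of all genes (2.44% higher, 1.37% lower). With E2 present on both sides, doxycycline changed 22 members (9 higher, 13 lower), against 28% of all genes (15% higher, 13% lower). The 22 include EPHA8 (higher) and SEMA5B (lower), for which this difference was built into being tested. EPHA8 passed the count filter through induced libraries alone and SEMA5B mainly through uninduced ones. The limit on EPHA8 also holds for its place among the 3 higher without E2. Upper quartile scaling gave 1799 genes higher and 2679 lower there, against 2184 and 1894 with TMM, and 8 and 15 members. In uninduced cells no member was called for E2, and 0% of all genes was (0% higher, 0% lower). There, 227 of all genes but 0 of the 44 members had an unadjusted p under 0.05, DESeq2 called 1 gene, which was no member, and limma-voom called 0. The interaction, which asks whether the E2 difference itself is unequal between induced and uninduced cells, was called for 11 members (5 higher, 6 lower), against 8.47% of all genes (5.66% higher, 2.81% lower). With upper quartile scaling the split of all genes was 700 higher and 518 lower, against 823 and 409 with TMM, and the members' split was unchanged. In all, 25 members were called in at least 1 of the 5 comparisons and 19 in none. These counts come from a fit without replicate number. With replicate number as a block, 10 members were higher and 14 lower for E2 in induced cells, against 23.8% of all genes. For doxycycline without E2 it was 9 and 9 (10% of all genes), and for doxycycline with E2 11 and 18 (37.3%). The interaction was called for 7 higher and 8 lower (14.7%). The block also called 8 of the 19, which leaves 11 in none. In bulk RNA, fewer cells of a type and less RNA per cell cannot be told apart. The comparisons share groups (E2 in induced cells and doxycycline with E2 share the induced E2 libraries, for example), so their values are given side by side and not as independent repeats.

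**Figure D2:**
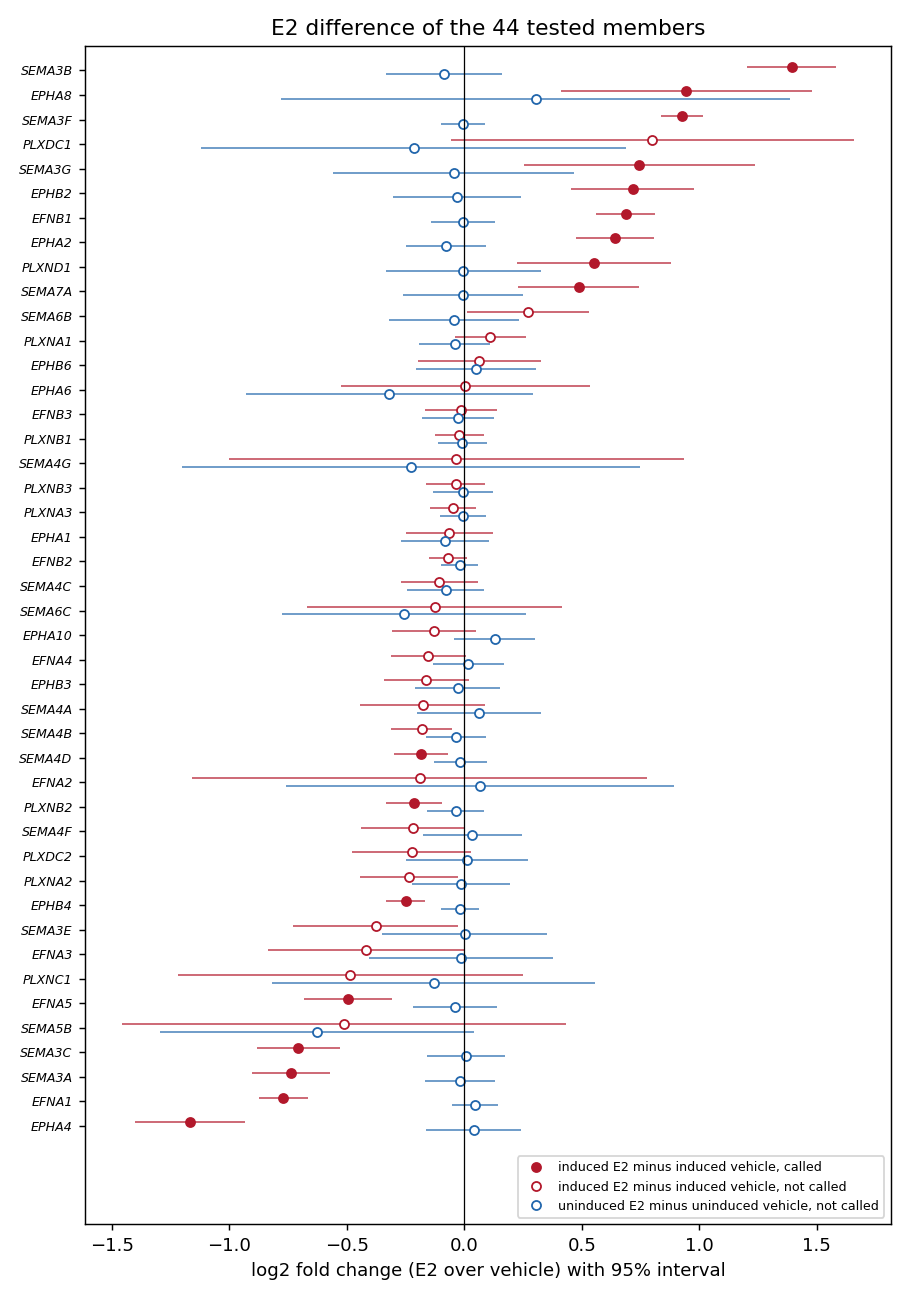
Log2 fold change with E2 over vehicle and its 95% interval for the 44 tested members, in induced cells (red) and uninduced cells (blue), 3 libraries per group. Filled points passed the adjusted p threshold of 0.05 in the fit without replicate number. The 17 filled points are all red and run from −1.17 (EPHA4) to 1.39 (SEMA3B), and no blue point is filled.

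The promoters of 4 of the members whose E2 difference depended on induction are shown, because the receptor acts on DNA. Among members with a called interaction and 1 start in the table used, they are the 4 of smallest interaction p (RefSeq, build GRCh38.p14, 250 bases before to 50 after the start, 5′ to 3′ on the gene's strand). They are the ligands EFNA1 (chr1:155127626-155127925, plus strand) and EFNB1 (chrX:68828771-68829070, plus strand) and the receptors EPHA2 (chr1:16156020-16156319, minus strand) and EPHB4 (chr7:100827474-100827773, minus strand). Capitals mark the GC box, GGGCGG on either strand (CCGCCC on the printed one where the box lies on the other), with overlapping boxes run together.
EFNA1: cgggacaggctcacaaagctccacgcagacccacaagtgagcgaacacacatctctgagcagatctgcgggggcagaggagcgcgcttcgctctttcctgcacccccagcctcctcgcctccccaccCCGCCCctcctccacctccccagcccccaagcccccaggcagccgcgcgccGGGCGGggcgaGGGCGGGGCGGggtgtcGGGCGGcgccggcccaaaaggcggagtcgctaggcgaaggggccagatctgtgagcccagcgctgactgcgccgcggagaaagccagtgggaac
EFNB1: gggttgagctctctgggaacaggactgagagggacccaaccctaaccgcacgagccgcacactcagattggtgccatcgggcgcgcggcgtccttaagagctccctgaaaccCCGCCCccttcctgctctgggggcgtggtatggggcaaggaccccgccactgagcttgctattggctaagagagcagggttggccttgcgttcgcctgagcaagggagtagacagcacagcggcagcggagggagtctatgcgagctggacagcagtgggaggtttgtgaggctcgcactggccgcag
EPHA2: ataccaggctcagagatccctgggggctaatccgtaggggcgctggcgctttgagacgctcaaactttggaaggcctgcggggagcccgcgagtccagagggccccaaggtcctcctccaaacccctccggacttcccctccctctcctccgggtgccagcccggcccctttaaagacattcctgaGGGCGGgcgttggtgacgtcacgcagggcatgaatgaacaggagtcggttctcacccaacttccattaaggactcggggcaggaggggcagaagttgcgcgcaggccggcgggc
EPHB4: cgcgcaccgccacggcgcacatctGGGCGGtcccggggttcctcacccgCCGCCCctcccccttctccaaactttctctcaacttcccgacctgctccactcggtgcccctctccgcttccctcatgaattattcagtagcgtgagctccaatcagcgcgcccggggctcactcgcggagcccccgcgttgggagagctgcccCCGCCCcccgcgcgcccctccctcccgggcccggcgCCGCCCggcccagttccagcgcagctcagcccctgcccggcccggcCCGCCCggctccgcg
EFNA1 and EPHB4 each hold 5 GC boxes in this window, and EFNB1 and EPHA2 each hold 1. None of the 4 holds the single estrogen receptor repeat GGTCA on either strand. EFNA5, which has 1 start and a called interaction of larger p and is not printed, holds 1 such repeat, at position −38 from the start. Members with a called interaction but several starts were not printed either. Among them SEMA3F has 3 starts, with the repeat at −66, and SEMA3C has 2, with the repeat at −69. EPHA4 has 2 starts and no repeat, and SEMA3B and EPHB2 are given below. Sites outside these 300-base windows were not looked at. Promoters were in the table for 47 of the 53 members, with 74 starts. The palindromic estrogen response element (GGTCA, any 3 bases, then TGACC) was in 0 of these 74 windows and in 20 of 35116 windows of all genes (0.057%). The single repeat GGTCA was in 30 of the 74 (40.5%), against 37.4% of all windows. It was in 10 of 17 windows of members higher and 4 of 9 windows of members lower with E2 in induced cells. These 17 windows come from 9 genes and the 9 from 7, so they are not independent. SEMA3B has 5 starts, with the repeat at −43, −114, −189 and 30. The 2 windows of EPHB2 overlap and hold the same repeat (−175 and −176) and the same GC box (−101 and −102). The GC box was in 54 of the 74 (73%), against 45% of all, and in 14 of 17 windows of members higher (82.4%) and 8 of 9 windows of members lower (88.9%) with E2 in induced cells. The AP-1 motif TGANTCA was in 1 of the 74 (1.35%), against 7.71% of all.

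All 4 A-type ephrins expressed above 1 TPM were lower in induced E2 than in uninduced E2 cells, where 13% of all genes were lower. With E2 in induced cells, 2 of the 5 tested A-type ephrins were lower, against 6.61% of all genes. EFNA1, the main ligand of EPHA2, was measured at 24.8, 25.2 and 24.0 CPM in induced E2 cells, 39.9, 43.4 and 42.4 CPM in induced vehicle cells, 49.9, 49.4 and 48.1 CPM in uninduced E2 cells and 49.7, 47.9 and 45.8 CPM in uninduced vehicle cells. Every induced E2 library lay below all others, and the induced vehicle libraries lay between them and the 6 uninduced ones. E2 lowered EFNA1 1.71-fold in induced cells (log2 −0.77, SE 0.05, adjusted p = 6.23e-08), and the log2 difference in uninduced cells was 0.05. The 2 E2 differences were unequal (interaction log2 −0.82, SE 0.07, adjusted p = 2.75e-06). Doxycycline without E2 gave −0.18 log2 (adjusted p = 0.0550). With replicate number in the model as a block the value was −0.17 (adjusted p = 0.0178).

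EFNA5, a ligand best known from topographic maps in the brain, was measured at 33.9, 35.0 and 38.3 CPM in induced E2 cells, 43.6, 52.1 and 54.5 CPM in induced vehicle cells, 52.5, 62.8 and 59.0 CPM in uninduced E2 cells and 54.0, 62.2 and 62.1 CPM in uninduced vehicle cells. Again the induced E2 libraries were the lowest, with no overlap with any other group. EFNA5 was 1.41-fold lower with E2 in induced cells (log2 −0.50, SE 0.09, adjusted p = 0.000959). In the presence of E2, doxycycline lowered it 1.63-fold (log2 −0.71, SE 0.08, adjusted p = 1.92e-05). Its interaction of −0.45 (SE 0.12, adjusted p = 0.0294) lost its call without any 1 of 7 libraries (induced E2 1 and 2, induced vehicle 2 and 3, uninduced E2 2 and 3, uninduced vehicle 1), with values of −0.45 to −0.39 and adjusted p of 0.0565 to 0.0932. Without E2, its doxycycline difference of −0.24 was called with the replicate block only (adjusted p = 0.00166). EFNA4, next to which RefSeq lists the EFNA4-EFNA3 read-through gene (sharing of reads was not measured), was 16, 15.1 and 16.6 CPM in induced E2 cells against 19.5, 20.8 and 21.2 CPM in uninduced E2 cells (log2 −0.37, SE 0.07, adjusted p = 0.00120). EFNA3, on the other side of the read-through, was 3.98, 4.52 and 4.14 CPM in induced E2 cells against 5.72, 6.15 and 6.48 CPM in uninduced E2 cells (log2 −0.54, SE 0.19, adjusted p = 0.0470). That call was lost without any 1 of 9 libraries (all of induced E2, all of uninduced E2, induced vehicle 2 and 3, uninduced vehicle 3), with values of −0.59 to −0.50 and adjusted p of 0.0545 to 0.130. With the replicate block EFNA3 was also called for E2 in induced cells (log2 −0.40, adjusted p = 0.0498). EFNA2, at a mean of 0.574 TPM, was called in no comparison. Summed over the 5 genes, A-type ephrins stood at 81.3 ± 1.41 TPM in induced E2 cells against 118 ± 7.32 TPM in induced vehicle, 138 ± 1.94 TPM in uninduced E2 and 138 ± 5.37 TPM in uninduced vehicle cells (SD, n = 3 each).

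The B-type ephrins went separate ways. EFNB1, which binds EphB receptors and is needed for craniofacial development, was measured at 29.7, 29.4 and 29.4 CPM in induced E2 cells, 17.0, 19.3 and 18.2 CPM in induced vehicle cells, 15.6, 16.3 and 15.5 CPM in uninduced E2 cells and 15.2, 15.5 and 16.6 CPM in uninduced vehicle cells. All 3 induced E2 libraries stood far above the other 9, which lay close together. E2 raised EFNB1 1.61-fold in induced cells (log2 0.69, SE 0.06, adjusted p = 1.13e-06), while the interaction was 0.69 (SE 0.09, adjusted p = 0.000111). Without E2, its doxycycline difference was 0.21 with the replicate block (adjusted p = 0.0427) and missed the threshold without it (adjusted p = 0.101). EFNB2, the ligand of EPHB4 that marks arteries, was measured at 93.7, 90.4 and 90.2 CPM in induced E2 cells, 92.5, 97.9 and 96.7 CPM in induced vehicle cells, 111, 115 and 117 CPM in uninduced E2 cells and 119, 117 and 114 CPM in uninduced vehicle cells. The 6 induced libraries lay below the 6 uninduced ones with or without E2. EFNB2 fell with doxycycline by 0.28 on the log2 scale without E2 (SE 0.04, adjusted p = 0.000586) and by 0.33 with E2 (SE 0.04, adjusted p = 1.18e-05). Its E2 difference in induced cells was −0.07 (95% interval −0.15 to 0.01, adjusted p = 0.279). EFNB3, at 12.9 TPM, was called in no comparison, and its E2 difference in induced cells was −0.01 (95% interval −0.17 to 0.14). An antisense RNA overlaps EFNB2 in GENCODE, and strand use in counting is not stated in the sources used here.

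Of the 6 tested EphA receptors, 2 were higher and 1 lower with E2 in induced cells, against 9.85% and 6.61% of all genes. EPHA2, the epithelial receptor of EFNA1, was measured at 55.6, 50.6 and 49.4 CPM in induced E2 cells, 35.0, 31.5 and 33.7 CPM in induced vehicle cells, 35.0, 34.5 and 32.7 CPM in uninduced E2 cells and 42.6, 32.9 and 34.9 CPM in uninduced vehicle cells. The 3 induced E2 libraries exceeded every other library. E2 raised EPHA2 1.56-fold in induced cells (log2 0.64, SE 0.08, adjusted p = 3.26e-05), while the interaction was 0.72 (SE 0.11, adjusted p = 0.000658). Receptor and ligand thus moved in opposite directions. The ratio of EPHA2 to EFNA1, both in TPM, was 0.804 ± 0.047 in induced E2 cells against 0.305 ± 0.029 in induced vehicle cells. It was 0.265 ± 0.0044 in uninduced E2 and 0.294 ± 0.032 in uninduced vehicle cells (SD, n = 3 each). This ratio restates the calls of the 2 genes and is no separate evidence.

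EPHA4, a receptor that binds both ephrin types, was measured at 9.89, 11.7 and 12.6 CPM in induced E2 cells, 20.3, 28.6 and 27.0 CPM in induced vehicle cells, 34.9, 36.7 and 35.2 CPM in uninduced E2 cells and 33.7, 35.1 and 34.8 CPM in uninduced vehicle cells. Its groups formed 3 steps, with induced E2 lowest, induced vehicle next and both uninduced groups highest. E2 lowered EPHA4 2.24-fold in induced cells (log2 −1.17, SE 0.11, adjusted p = 2.93e-06), while the interaction was −1.21 (SE 0.14, adjusted p = 7.78e-05). Doxycycline lowered it 3.10-fold with E2 (log2 −1.63, SE 0.10, adjusted p = 2.92e-08). Without E2 the doxycycline decrease was 0.43 on the log2 scale (log2 −0.43, SE 0.10, adjusted p = 0.0254), and it was not called without induced vehicle 3, uninduced vehicle 2 or uninduced vehicle 3 (values of −0.46 to −0.42, adjusted p of 0.0540 to 0.104), nor with only the 2 groups compared (adjusted p = 0.0629). An antisense RNA overlaps EPHA4 in GENCODE.

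EPHA8, a receptor studied mainly in the midbrain, was near the detection limit in uninduced cells. Its expected counts were 41, 65 and 50 in induced E2 cells, 16, 36 and 26 in induced vehicle cells, 2, 10 and 7 in uninduced E2 cells and 0, 8 and 4 in uninduced vehicle cells. Scaled for depth this was 2.33, 2.56 and 2.25 CPM in induced E2 cells, 1.24, 1.13 and 1.37 CPM in induced vehicle cells, 0.113, 0.299 and 0.278 CPM in uninduced E2 cells and 0, 0.302 and 0.159 CPM in uninduced vehicle cells. No induced library overlapped an uninduced one. EPHA8 passed the count filter through the induced libraries alone, so a difference between them and the uninduced ones was built into its being tested, and the fitted size rests on 0 to 10 counts per uninduced library. With that limit, the fitted doxycycline difference was 2.60 log2 without E2 (95% interval 1.77 to 3.44, adjusted p = 0.00108) and 3.24 log2 with E2 (95% interval 2.57 to 3.92, adjusted p = 2.15e-06). E2 raised it by 0.95 log2 in induced cells (SE 0.25, adjusted p = 0.0163), a call lost without induced E2 2 (0.89, adjusted p = 0.0716) or induced vehicle 2 (0.86, adjusted p = 0.0934). EPHA6 was 1.65, 1.18 and 1.12 CPM in induced E2 cells against 0.623, 0.777 and 0.636 CPM in uninduced E2 cells (log2 0.91, SE 0.26, adjusted p = 0.0169). That call was lost without induced E2 1 (0.74, adjusted p = 0.0709), without uninduced E2 3 (0.85, adjusted p = 0.0611) and with DESeq2 (0.93, adjusted p = 0.0521). EPHA10, a receptor without a working kinase, was 11.1, 10.8 and 9.98 CPM in induced E2 cells against 14, 14 and 12 CPM in uninduced E2 cells (log2 −0.33, SE 0.08, adjusted p = 0.00641). EPHA1, at 14.7 TPM, was called in no comparison, and its exons overlap ZYX on the other strand.

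Among EphB receptors, EPHB2 and EPHB4 were called in opposite directions. EPHB2, a target of Wnt signalling in intestinal epithelium, was measured at 116, 146 and 147 CPM in induced E2 cells, 64.1, 89.4 and 93.4 CPM in induced vehicle cells, 66.6, 78.3 and 74.4 CPM in uninduced E2 cells and 65.2, 79.9 and 76.9 CPM in uninduced vehicle cells. The library numbered 1 was lowest in each group, and the induced E2 libraries still stood above all others. E2 raised EPHB2 1.64-fold in induced cells (log2 0.72, SE 0.12, adjusted p = 0.000751). Its interaction was 0.75 (SE 0.18, adjusted p = 0.0151), or 0.69 without uninduced vehicle 2 (adjusted p = 0.0519). EPHB4, the receptor of EFNB2, was measured at 122, 117 and 120 CPM in induced E2 cells, 135, 144 and 146 CPM in induced vehicle cells, 139, 147 and 141 CPM in uninduced E2 cells and 142, 144 and 145 CPM in uninduced vehicle cells. The decrease was small but the induced E2 libraries lay below the other 9. EPHB4 was 1.19-fold lower with E2 in induced cells (log2 −0.25, SE 0.04, adjusted p = 0.000310), while the interaction was −0.23 (SE 0.05, adjusted p = 0.0147), or −0.21 without induced vehicle 2 (adjusted p = 0.0530). Its exons overlap SLC12A9 on the other strand. EPHB3 (31.0 TPM) and the kinase-inactive EPHB6 (9.31 TPM) were called in no comparison. With the replicate block, EPHB3 was called for E2 in induced cells (log2 −0.16, adjusted p = 0.00697) and for doxycycline without E2 (0.13, adjusted p = 0.0456), and EPHB6 for doxycycline without E2 (−0.26, adjusted p = 0.0173) and with E2 (−0.24, adjusted p = 0.00588). EPHB2 was called for doxycycline without E2 only with the block (0.16, adjusted p = 0.0448).

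**Figure D3:**
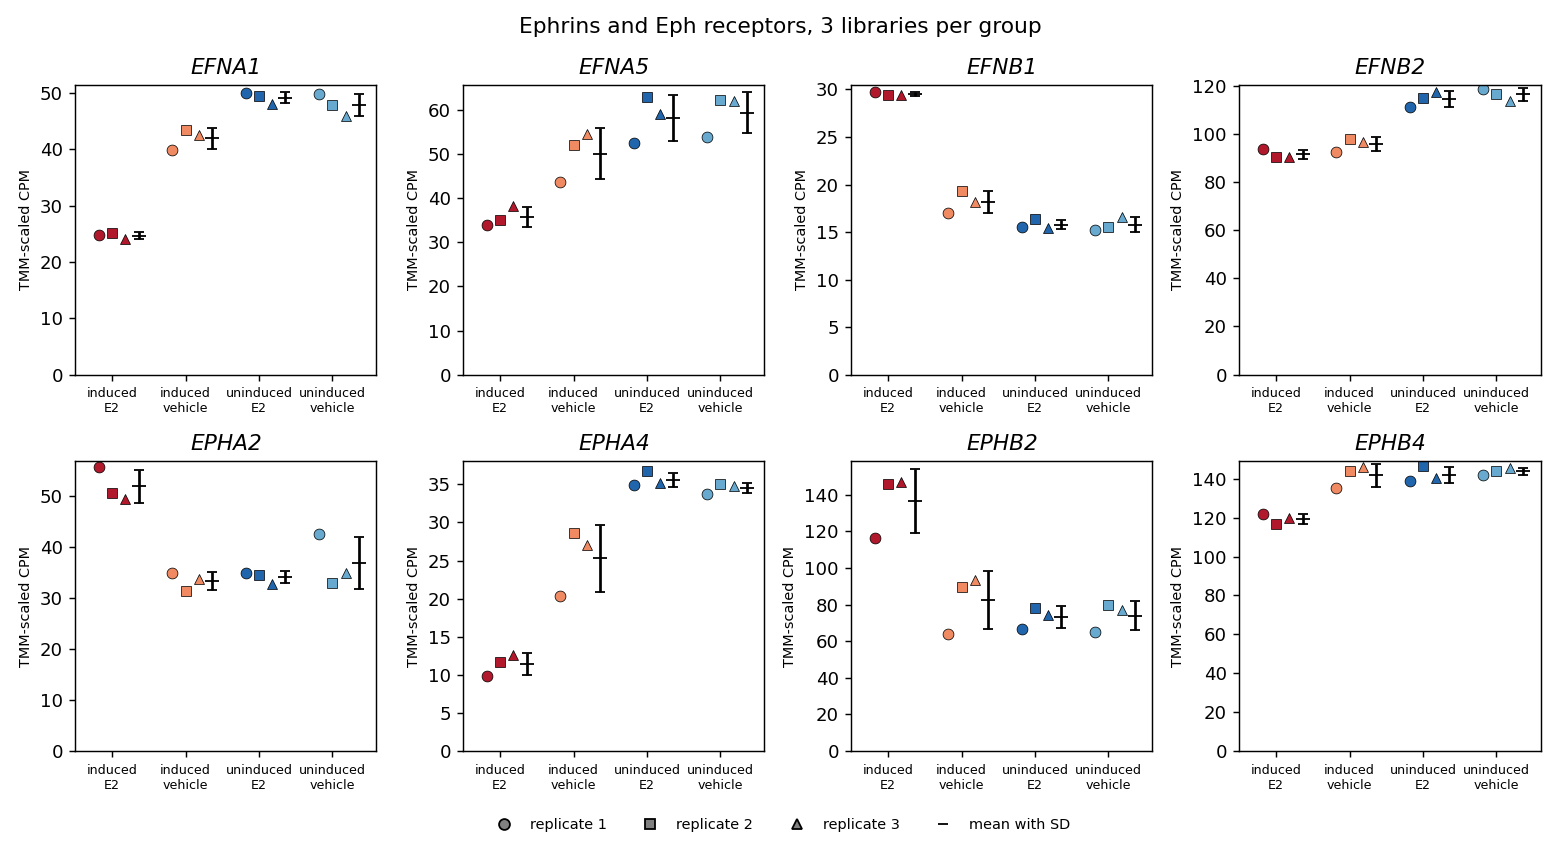
TMM-scaled CPM of 4 ephrins (top) and 4 Eph receptors (bottom) in each library, by group; symbols give the replicate number and the black bar the mean with SD of 3 libraries. The induced E2 libraries are lowest for EFNA1, EFNA5, EPHA4 and EPHB4 and highest for EFNB1, EPHA2 and EPHB2, while EFNB2 separates the induced from the uninduced libraries (90.2 to 97.9 against 111 to 119 CPM).

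Of the 6 tested class 3 semaphorins, which are secreted, 3 were higher and 2 lower when E2 was added to induced cells. Of all genes tested, 9.85% were higher and 6.61% lower there. SEMA3B had the largest E2 difference of all 44 tested members in induced cells. SEMA3B, which restrains growth and migration in several tumour cell types, was measured at 76.9, 85.8 and 84.6 CPM in induced E2 cells, 32.6, 30.6 and 31.4 CPM in induced vehicle cells, 9.11, 12.7 and 12.4 CPM in uninduced E2 cells and 9.74, 13.0 and 12.9 CPM in uninduced vehicle cells. The groups formed 3 separate steps, with no overlap between induced E2, induced vehicle and the uninduced libraries. Doxycycline raised SEMA3B 2.55-fold without E2 (log2 1.35, SE 0.11, adjusted p = 2.95e-06). In the presence of E2 the increase was 7.10-fold (log2 2.83, SE 0.10, adjusted p = 3.79e-11). E2 raised it 2.63-fold in induced cells (log2 1.39, SE 0.09, adjusted p = 5.56e-08) and gave −0.09 in uninduced cells (95% interval −0.33 to 0.16), with an interaction of 1.48 (SE 0.14, adjusted p = 1.28e-05).

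SEMA3F, a ligand of NRP2 that repels endothelial and tumour cells, was measured at 187, 190 and 184 CPM in induced E2 cells, 100, 95.6 and 99.2 CPM in induced vehicle cells, 88.9, 81.2 and 82.3 CPM in uninduced E2 cells and 86.7, 85.6 and 81.0 CPM in uninduced vehicle cells. Each induced E2 library was far above any other, and the induced vehicle libraries lay narrowly above the uninduced ones. The antisense RNA SEMA3F-AS1, which has no counts of its own in the deposited data, overlaps SEMA3F exons in GENCODE. E2 raised SEMA3F 1.90-fold in induced cells (log2 0.93, SE 0.04, adjusted p = 2.20e-09), with an interaction of 0.93 (SE 0.06, adjusted p = 2.87e-07). Doxycycline without E2 raised it by 0.22 log2 (SE 0.04, adjusted p = 0.00813), or 0.19 without uninduced vehicle 3 (adjusted p = 0.0588). SEMA3G, which is known from blood vessels, was 5.35, 8.41 and 8.41 CPM in induced E2 cells, 2.49, 5.78 and 4.26 CPM in induced vehicle cells, 4.64, 4.90 and 4.73 CPM in uninduced E2 cells and 3.50, 5.70 and 4.80 CPM in uninduced vehicle cells. Induced E2 and induced vehicle libraries overlapped, although each induced E2 library exceeded the induced vehicle library of its own number. SEMA3G was called for E2 in induced cells (log2 0.74, SE 0.23, adjusted p = 0.0385) and for doxycycline with E2 (log2 0.65, SE 0.22, adjusted p = 0.0419). The first call was lost with only the 2 groups compared (adjusted p = 0.0897) and without any 1 of 7 libraries (induced E2 2 and 3, induced vehicle 1 and 3, uninduced E2 2 and 3, uninduced vehicle 3), with values of 0.55 to 0.75 and adjusted p of 0.0518 to 0.149. The second was lost with upper quartile scaling (adjusted p = 0.0502) and without any 1 of 7 (induced E2 2 and 3, induced vehicle 3, uninduced E2 1, 2 and 3, uninduced vehicle 3), with values of 0.54 to 0.67 and adjusted p of 0.0554 to 0.155. The block called its interaction as well (0.78, adjusted p = 0.0121).

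SEMA3A, the founding axon repellent and a ligand of NRP1, was measured at 7.11, 8.73 and 8.63 CPM in induced E2 cells, 13.3, 14.1 and 13.6 CPM in induced vehicle cells, 17.1, 16.6 and 16.9 CPM in uninduced E2 cells and 16.7, 17.0 and 17.2 CPM in uninduced vehicle cells. It stepped down in the order in which SEMA3B stepped up, without overlap between the steps. E2 lowered SEMA3A 1.67-fold in induced cells (log2 −0.74, SE 0.08, adjusted p = 8.71e-06), with an interaction of −0.72 (SE 0.10, adjusted p = 0.000387). SEMA3C, which promotes migration and invasion in several cancers, was measured at 36, 43.1 and 42.0 CPM in induced E2 cells, 57.7, 70.8 and 68.3 CPM in induced vehicle cells, 77.4, 85.9 and 84.6 CPM in uninduced E2 cells and 75.6, 84.3 and 85.3 CPM in uninduced vehicle cells. The same 3 steps were seen, each without overlap. E2 lowered SEMA3C 1.63-fold in induced cells (log2 −0.71, SE 0.08, adjusted p = 2.41e-05), with an interaction of −0.71 (SE 0.11, adjusted p = 0.000829). Doxycycline with E2 lowered SEMA3A 2.05-fold (log2 −1.03, adjusted p = 9.02e-08) and SEMA3C 2.04-fold (log2 −1.03, adjusted p = 2.11e-07).

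Without E2, both genes kept their doxycycline calls with the replicate block (−0.31 each, adjusted p = 0.00651 for SEMA3A and 1.47e-05 for SEMA3C), while without it some single libraries ended them. SEMA3A fell by 0.31 on the log2 scale (SE 0.07, adjusted p = 0.0240), a call lost with DESeq2 (adjusted p = 0.0530) and without any 1 of 5 libraries (induced vehicle 1, 2 and 3, uninduced vehicle 2 and 3), with values of −0.34 to −0.30 and adjusted p of 0.0569 to 0.110. SEMA3C fell by 0.32 (SE 0.08, adjusted p = 0.0383), a call lost with only the 2 groups compared (adjusted p = 0.0581) and without any 1 of 7 libraries (induced E2 3, induced vehicle 1 and 3, uninduced E2 2 and 3, uninduced vehicle 2 and 3), with values of −0.34 to −0.24 and adjusted p of 0.0527 to 0.168. SEMA3E, a ligand that binds PLXND1 without a neuropilin, was 57.1, 77.1 and 79.2 CPM in induced E2 cells, 71.0, 100 and 104 CPM in induced vehicle cells, 63.9, 87.3 and 89.0 CPM in uninduced E2 cells and 63.7, 87.3 and 85.8 CPM in uninduced vehicle cells. The library numbered 1 was far below the other 2 in every group, and each induced E2 library was below the induced vehicle library of its number. SEMA3E passed no threshold in the fit without a block (E2 in induced cells, log2 −0.38, SE 0.16, adjusted p = 0.153). With the replicate block it was called for E2 in induced cells (−0.37, SE 0.04, adjusted p = 1.09e-07), for doxycycline without E2 (0.22, adjusted p = 0.000260) and with E2 (−0.17, adjusted p = 0.000682), and for the interaction (−0.39, adjusted p = 9.91e-06).

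As a class, secreted semaphorins summed to 215 ± 10.7 TPM in induced E2 cells against 147 ± 7.46 TPM in induced vehicle, 128 ± 4.16 TPM in uninduced E2 and 129 ± 6.68 TPM in uninduced vehicle cells (SD, n = 3 each). The ratio of SEMA3B to SEMA3C, both in TPM, was 3.67 ± 0.14 in induced E2 cells against 0.870 ± 0.124 in induced vehicle, 0.246 ± 0.030 in uninduced E2 and 0.259 ± 0.024 in uninduced vehicle cells.

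**Figure D4:**
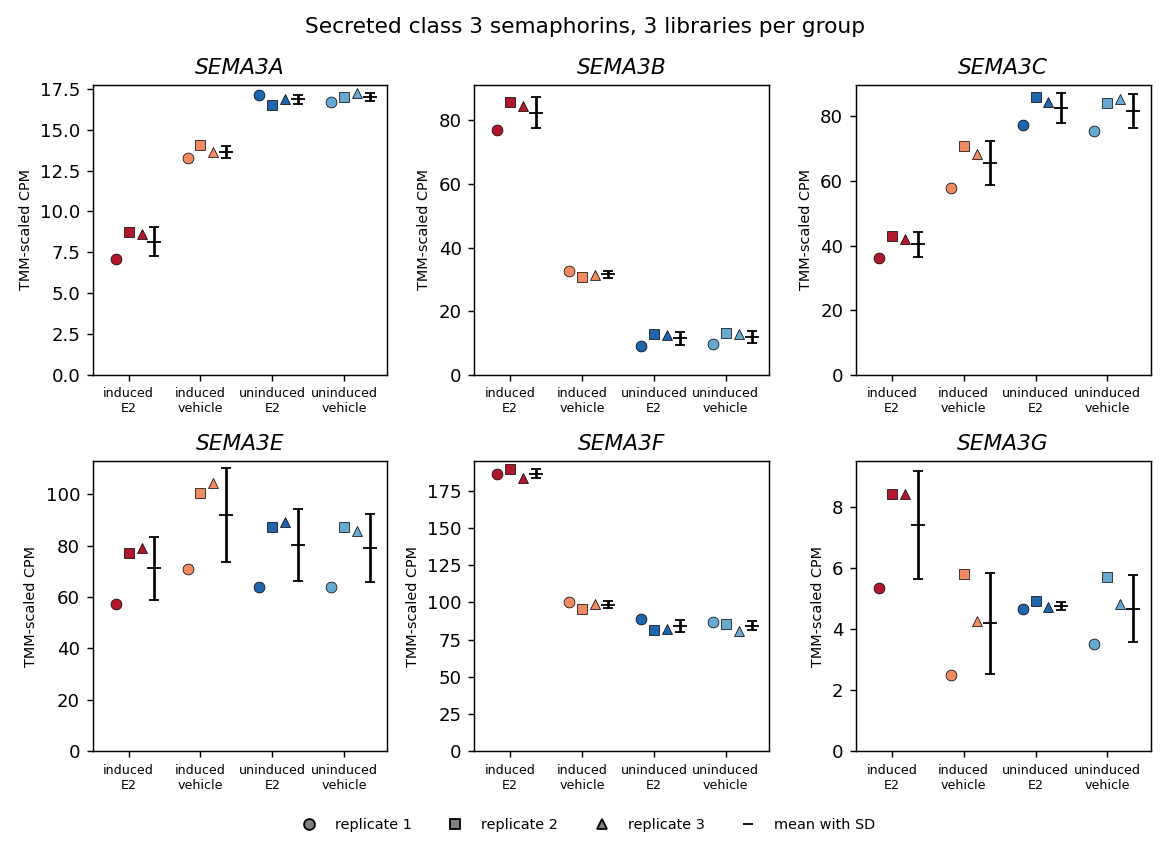
TMM-scaled CPM of the 6 tested class 3 semaphorins in each library, by group; symbols give the replicate number and the black bar the mean with SD of 3 libraries. SEMA3B and SEMA3F are highest in induced E2 cells (76.9 to 85.8 and 184 to 190 CPM), SEMA3A and SEMA3C are lowest there, and in SEMA3E the circle of replicate 1 is the lowest point of every group.

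Of the 10 tested semaphorins of classes 4 to 7, which are held at the membrane, 1 was higher and 1 lower with E2 in induced cells. That is near the 16.5% of all genes called there. SEMA7A, a lipid-anchored semaphorin that signals through integrins, was 9.67, 7.94 and 7.69 CPM in induced E2 cells, 5.36, 5.69 and 6.84 CPM in induced vehicle cells, 6.96, 7.32 and 6.96 CPM in uninduced E2 cells and 5.87, 7.59 and 7.27 CPM in uninduced vehicle cells. Induced E2 held the 3 highest libraries, though narrowly. E2 raised SEMA7A 1.40-fold in induced cells (log2 0.49, SE 0.12, adjusted p = 0.0114), or by 0.44 without induced vehicle 2 (adjusted p = 0.0677), while the interaction was 0.49 (SE 0.17, adjusted p = 0.105). SEMA4D, a ligand of PLXNB1, was 26.6, 27.4 and 27.5 CPM in induced E2 cells against 31.7, 29.5 and 31.8 CPM in induced vehicle cells (log2 −0.18, SE 0.05, adjusted p = 0.0289). That call was lost with DESeq2 (adjusted p = 0.0953) and without any 1 of 5 libraries (induced E2 1, 2 and 3, induced vehicle 1 and 3), with values of −0.19 to −0.16 and adjusted p of 0.0648 to 0.118.

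A further 3 membrane semaphorins were called only for doxycycline with E2, where 28% of all genes were called. SEMA6B was 12, 14.1 and 13.1 CPM in induced E2 cells against 7.02, 10.2 and 8.59 CPM in uninduced E2 cells (log2 0.58, SE 0.12, adjusted p = 0.00210). With the replicate block SEMA6B was also called for E2 in induced cells (0.29, adjusted p = 0.0104) and for doxycycline without E2 (0.28, adjusted p = 0.0485). SEMA4F was 5.91, 4.95 and 4.81 CPM in induced E2 cells against 6.79, 6.78 and 6.48 CPM in uninduced E2 cells (log2 −0.36, SE 0.10, adjusted p = 0.0126). Its call was lost without induced E2 2 (−0.33, adjusted p = 0.0597), without induced E2 3 (−0.31, adjusted p = 0.0624) and with DESeq2 (adjusted p = 0.0599). SEMA5B, with at most 19 expected counts in a library, was 0.171, 0.236 and 0.180 CPM in induced E2 cells against 0.509, 0.418 and 0.437 CPM in uninduced E2 cells (log2 −1.15, SE 0.39, adjusted p = 0.0398). Only 1 of its induced libraries, an induced vehicle one, reached the level the count filter asks for, against all 6 uninduced ones, so this difference too was built into its being tested. Its call was lost with DESeq2 (adjusted p = 0.170), without the count filter (adjusted p = 0.0662) and without any 1 of 7 libraries (all of induced E2, all of uninduced E2, uninduced vehicle 2), with values of −1.32 to −1.08 and adjusted p of 0.0518 to 0.114. With the block SEMA5B was called for doxycycline without E2 as well (−1.26, adjusted p = 0.0498). SEMA4C (15.3 TPM) and SEMA4B (15 TPM), the most abundant membrane semaphorins, were called in no comparison. SEMA4B had −0.18 for E2 in induced cells (adjusted p = 0.0529, or 0.0225 with the block). SEMA4A, SEMA4G and SEMA6C were called in no comparison either, although the block called SEMA4A (−0.21, adjusted p = 0.0165) and SEMA4D (−0.14, adjusted p = 0.0431) for doxycycline with E2.

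The plexins were counted together with PLXDC1 and PLXDC2, which are not plexins. Of these 10 tested members, 2 were called for E2 in induced cells, both of them plexins. That is near the 16.5% of all genes called there. PLXNB2, the most abundant member, was measured at 476, 483 and 472 CPM in induced E2 cells, 508, 577 and 574 CPM in induced vehicle cells, 515, 576 and 539 CPM in uninduced E2 cells and 524, 594 and 553 CPM in uninduced vehicle cells. The induced E2 libraries were the 3 lowest. PLXNB2 was 1.16-fold lower with E2 in induced cells (log2 −0.21, SE 0.06, adjusted p = 0.0163) and 1.14-fold lower with doxycycline in the presence of E2 (log2 −0.19, SE 0.06, adjusted p = 0.0210), and its interaction was called with the replicate block only (−0.18, adjusted p = 0.0122). The first call was lost without induced E2 3, induced vehicle 2 or induced vehicle 3 (values of −0.21 to −0.18, adjusted p of 0.0604 to 0.0986). The second was lost without induced E2 3 (−0.18, adjusted p = 0.0684) or uninduced E2 2 (−0.14, adjusted p = 0.107). PLXND1, the receptor of SEMA3E, was 44.2, 58.3 and 62.5 CPM in induced E2 cells, 27.0, 40.7 and 43.2 CPM in induced vehicle cells, 38.5, 46.7 and 45.0 CPM in uninduced E2 cells and 35.7, 46.7 and 45.9 CPM in uninduced vehicle cells. The induced groups did not overlap, and number 1 was the lowest in each of the 4 groups. E2 raised PLXND1 1.47-fold in induced cells (log2 0.55, SE 0.15, adjusted p = 0.0219), a call lost without induced E2 2 (0.51, adjusted p = 0.0825) or induced E2 3 (0.45, adjusted p = 0.106). The interaction of PLXND1 was 0.56 (adjusted p = 0.162) and was called with the replicate block (0.54, adjusted p = 6.01e-05), as were its doxycycline differences without E2 (−0.20, adjusted p = 0.0439) and with E2 (0.34, adjusted p = 3.54e-05).

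PLXNA1 (30.7 TPM) and PLXNA3 (29.3 TPM), which pair with neuropilins as receptors of class 3 semaphorins, were called in no comparison. For E2 in induced cells the log2 difference of PLXNA1 was 0.11 (95% interval −0.04 to 0.26) and that of PLXNA3 −0.05 (−0.15 to 0.05). With the replicate block PLXNA1 was called for doxycycline with E2 (0.15, adjusted p = 0.00559). PLXNA2 was called with the block for E2 in induced cells (−0.23, adjusted p = 0.00478) and for doxycycline with E2 (−0.18, adjusted p = 0.0170). PLXNB1, PLXNB3, PLXNC1 and PLXDC1 were called in no comparison with or without the block. PLXDC2, a membrane protein with a plexin-like domain, was called with the block for E2 in induced cells (−0.22, adjusted p = 0.0226) and for doxycycline without E2 (0.25, adjusted p = 0.0289). With the block, counts of called members came to 10 higher and 14 lower for E2 in induced cells, 9 and 9 for doxycycline without E2, 11 and 18 for doxycycline with E2, and 7 and 8 for the interaction. All 17, 7, 22 and 11 calls of the fit without a block were among them, and the block called 23.8%, 10%, 37.3% and 14.7% of all genes in these 4 comparisons.

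Of 8 tested co-receptors that carry semaphorin signals, none was called higher and 2 were lower with E2 in induced cells (25%, where 16.5% of all genes were called), and the median was −0.07 log2 against −0.005 over all genes. MET, the hepatocyte growth factor receptor, which associates with PLXNB1, was measured at 366, 353 and 360 CPM in induced E2 cells, 467, 451 and 453 CPM in induced vehicle cells, 491, 485 and 474 CPM in uninduced E2 cells and 495, 489 and 479 CPM in uninduced vehicle cells. Its groups lay in 3 steps without overlap, as those of SEMA3A did, although the step between induced and uninduced vehicle cells was not called (adjusted p = 0.128). MET was lower with E2 in induced cells by log2 −0.35 (SE 0.03, adjusted p = 1.71e-06), with an interaction of −0.33 (SE 0.04, adjusted p = 0.000163). NRP1, the co-receptor of SEMA3A, was 8.81, 7.59 and 6.79 CPM in induced E2 cells, 13.7, 12.3 and 10.5 CPM in induced vehicle cells, 14.9, 13.2 and 13.5 CPM in uninduced E2 cells and 15, 13.2 and 14.9 CPM in uninduced vehicle cells. Induced E2 held the 3 lowest libraries. NRP1 was lower with E2 in induced cells by log2 −0.65 (SE 0.11, adjusted p = 0.000838), with an interaction of −0.61 (SE 0.15, adjusted p = 0.0219). NRP2, the co-receptor of SEMA3F, averaged 12.4 CPM in induced E2, 13.6 CPM in induced vehicle, 10.5 CPM in uninduced E2 and 10.6 CPM in uninduced vehicle cells, and its doxycycline difference was 0.34 log2 without E2 (adjusted p = 0.115) and 0.26 with E2 (adjusted p = 0.0760).

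Of 23 tested genes that act downstream of semaphorins and plexins, 4 were higher and 1 was lower with E2 in induced cells. That is 21.7% of the list, against 16.5% of all genes (median 0.02 log2). MICAL2, an enzyme of the MICAL family that oxidises actin filaments, was 60.4, 66.2 and 66.4 CPM in induced E2 cells, 29.8, 30.4 and 29.5 CPM in induced vehicle cells, 23.5, 25.2 and 24.0 CPM in uninduced E2 cells and 25.0, 26.4 and 27.0 CPM in uninduced vehicle cells. Induced E2 stood well above the other 3 groups, which lay close together. MICAL2 rose by 1.11 log2 with E2 in induced cells (SE 0.05, adjusted p = 2.29e-09), and MICAL3, of the same family, by 0.82 (SE 0.05, adjusted p = 9.26e-08). RHOD, a small GTPase that binds plexins, rose by 0.56 (SE 0.07, adjusted p = 3.13e-05). DPYSL2, which binds tubulin and relays SEMA3A signals in neurons, fell by 0.40 (SE 0.06, adjusted p = 0.000468). Interactions were called for these 4 genes, at 1.22 for MICAL2, 0.85 for MICAL3, 0.55 for RHOD and −0.37 for DPYSL2 (adjusted p = 1.96e-07, 7.73e-06, 0.00212 and 0.0191).

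Of 28 tested genes of ephrin and Eph signalling, 2 were higher and 3 lower with E2 in induced cells (median −0.04 log2). These 5 are 17.9% of the list, close to the 16.5% of all genes called in this comparison. VAV3, a signalling protein that Eph receptors recruit, was 35.6, 27.1 and 26.7 CPM in induced E2 cells, 81.4, 63.3 and 66.4 CPM in induced vehicle cells, 95.1, 71.7 and 70.2 CPM in uninduced E2 cells and 98.8, 71.5 and 71.7 CPM in uninduced vehicle cells. Induced E2 did not overlap the other groups, and number 1 was the highest in every group. VAV3 fell by 1.24 log2 with E2 in induced cells (SE 0.16, adjusted p = 5.65e-05), and its interaction was −1.23 (SE 0.21, adjusted p = 0.00179). VAV2, its relative, fell by 0.31 (SE 0.07, adjusted p = 0.00443). The adaptor PICK1, which binds B-type ephrins, rose by 0.30 (SE 0.05, adjusted p = 0.000385), and STAT3 rose by 0.22 (SE 0.04, adjusted p = 0.00108).

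**Figure D5:**
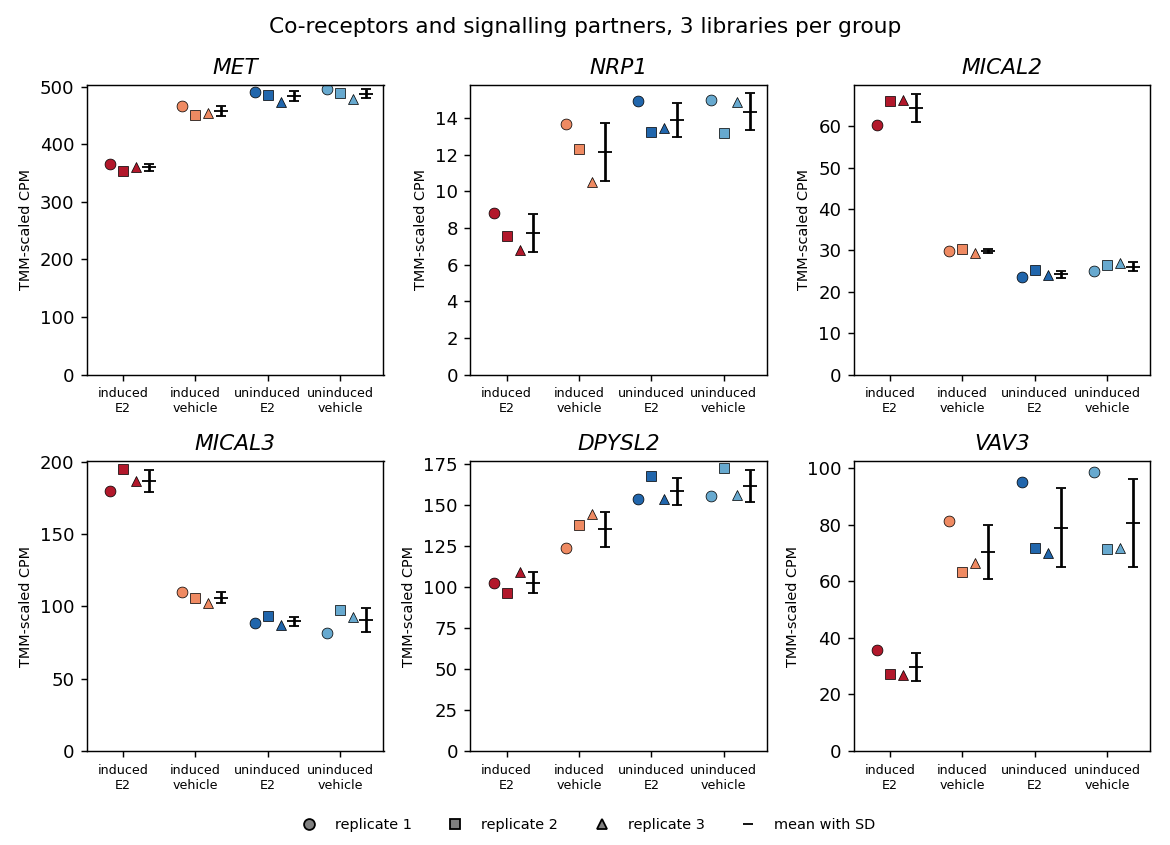
TMM-scaled CPM of 2 semaphorin co-receptors (MET, NRP1), 3 genes of semaphorin and plexin signalling (MICAL2, MICAL3, DPYSL2) and 1 of Eph signalling (VAV3) in each library, by group; symbols give the replicate number and the black bar the mean with SD of 3 libraries. The induced E2 libraries are the highest for MICAL2 and MICAL3 and the lowest for the other 4.

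Of 8 tested proteases that cut ephrins, Eph receptors or semaphorins, none was higher with E2 in induced cells. ADAM10, which sheds ephrins, was lower there (log2 −0.18, SE 0.05, adjusted p = 0.0232). That is 12.5% of the list, against 16.5% of all genes. For doxycycline with E2, 4 of the 8 were lower: PCSK6 (log2 −0.58, adjusted p = 0.000861), ADAM10 (−0.19, adjusted p = 0.0108), ADAM17 (−0.12, adjusted p = 0.0150) and FURIN (−0.33, adjusted p = 0.0399). These 4 are 50% of the list, against 28% of all genes (13% lower). Of 17 tested guidance cues and receptors of other families, 2 were higher and 4 lower with E2 in induced cells. That is 35.3% of the list, against 16.5% of all genes (median −0.16 log2). The netrin NTN4 averaged 154 CPM in induced E2 cells against 203 CPM in induced vehicle cells (log2 −0.40, SE 0.04, adjusted p = 3.25e-06). The netrin receptor UNC5A averaged 79.2 CPM in induced E2 cells against 53.3 CPM in induced vehicle cells (log2 0.57, SE 0.06, adjusted p = 1.11e-05). Its relative UNC5C was lower, at 1.31 CPM in induced E2 cells against 2.95 CPM in induced vehicle cells (log2 −1.14, SE 0.17, adjusted p = 0.000185). SRGAP3, which acts below Slit and Robo, was higher by 0.60 log2 (SE 0.09, adjusted p = 0.000189). For doxycycline without E2, RHOD was higher (0.30, adjusted p = 0.0324) and DPYSL2 lower (−0.26, adjusted p = 0.0408), and no other gene of the 5 lists was called. For doxycycline with E2, 0 co-receptors were higher and 3 lower, 6 semaphorin and plexin signalling genes were higher and 3 lower, 3 ephrin and Eph signalling genes were higher and 4 lower, and 3 genes of other guidance families were higher and 5 lower. Of the tested genes of these 4 lists that is 37.5%, 39.1%, 25% and 47.1%, where 28% of all genes were called, so the share of ephrin and Eph signalling genes was not above that of all genes. In uninduced cells E2 called none of the genes of these 5 lists.

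The intervals show how much of an E2 difference the uninduced cells could hide. Over the 44 tested members, the fitted E2 differences in uninduced cells ran from −0.63 (SEMA5B) to 0.31 log2 (EPHA8), both low in counts. For 35 of the 44 the 95% interval lay inside 0.5 log2 either side of 0. For the 11 members with a called interaction the interval bounds ran from −0.33 to 0.24 log2.

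Several members lie next to each other in the genome (RefSeq gene order, build GRCh38.p14). SEMA3F and SEMA3B on chromosome 3, both higher with E2 in induced cells, have 3 genes between them. Of these, which were chosen for their position and looked at after the members' values were known, GNAI2 was higher by 0.28 log2 (SE 0.05, adjusted p = 0.000743), SLC38A3 had 0.37 (SE 0.17, adjusted p = 0.179), and GNAT1, at 5 expected counts at most, was not tested. SEMA3C, SEMA3E and SEMA3A lie in this order on chromosome 7 (SEMA3D next to SEMA3A had no counts). Between SEMA3C and SEMA3E lie HGF, with at most 1 expected count, CACNA2D1, with none, and PCLO, whose E2 difference in induced cells was −0.15 (SE 0.08, adjusted p = 0.304). SEMA3C and SEMA3A were lower, and SEMA3E, the immediate neighbour of SEMA3A, was called lower with the replicate block. EFNA4, EFNA3 and EFNA1 follow each other on chromosome 1, and all were lower with doxycycline in the presence of E2. EPHA8 and EPHB2, also on chromosome 1, were both higher with E2 in induced cells, and the 3 genes between them (C1QA, C1QC and C1QB) had no counts.

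Replicate number, sequencing lane and file date go together in the deposited data: number 1 has an earlier date in all 4 groups, and numbers 2 and 3 share a later one. With the later date alone, 54 of the 57 called member differences kept their call and all kept their direction. The 3 that lost it were SEMA4D for E2 in induced cells (−0.15, adjusted p = 0.0807), EPHA6 for doxycycline with E2 (0.69, adjusted p = 0.0985) and SEMA5B for doxycycline with E2 (−1.01, adjusted p = 0.153). The earlier date has 1 library per group, so no test within it was possible.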

How the data were processed

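Total RNA (RNEasy Plus kit, Qiagen) became libraries by the TruSeq Sample Preparation V2 kit (per the labels). The files the authors deposited give, per gene symbol, an RSEM expected count and a transcript fraction that sums to 1 in each library. RSEM 1.1.16, DESeq 1.7.10 (use not stated) and hg19 come from the submitters' processing notes. No source used here gives the aligner. After rounding, the expected counts entered edgeR 4.0.16 (R 4.3.3; quasi-likelihood, TMM scaling, filterByExpr with a minimum count of 10 and total of 15, 14541 genes kept, 1 mean per group, 8 residual degrees of freedom). P-values were Benjamini-Hochberg adjusted over all genes within a comparison and called under 0.05. CPM are TMM-scaled. TPM here are the deposited fraction times 1e+06. Standard errors and 95% intervals come from the fit.

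The 53 members, the lists and the comparisons were chosen with earlier results of these data known. Named were all called members, up to 2 uncalled ones of highest TPM per class, members that failed the filter, and up to 4 called genes of smallest p per pathway list and comparison. ADAM17, FURIN and PCSK6 are covered by this rule, and CDH5, VWF and other markers by the marker list. NRP2, PCLO, HGF, CACNA2D1 and uncalled members gaining a call with the block are also named, a choice made after their values were seen.

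Deviations around group means were used to check whether replicate numbers pair the samples. Over the 12376 genes whose average log2 CPM was 1 or more, same-numbered libraries correlated at 0.104 to 0.464 in 18 pairs (median 0.246). All were over 0.1, so the numbers were taken to pair the samples. The main fit leaves this pairing out, and only the run with the replicate block uses it. Calls, standard errors and intervals given without mention of the block therefore ignore the pairing. Differently numbered libraries correlated at −0.427 to 0.278 in 36 pairs (median −0.220), so the ranges overlapped. Deviations around a mean of 3 sum to 0, which pushes the second kind of pair below 0. These ranges cannot tell a pairing by all 3 numbers from a split of number 1 against numbers 2 and 3. Over all 14541 genes the range was −0.004 to 0.261. The pairing comes from the data and from the shared lane and file date, not from a statement in the labels. Alternatives were DESeq2 1.42.0, limma-voom (limma 3.58.1), RLE and upper quartile scaling, no filter, a stricter filter, the replicate block, only the groups compared, numbers 2 and 3 alone, an adjusted p under 0.01, and each library left out. Genome positions are of GRCh38.p14, not of the authors' hg19.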

Additional observations from a re-analysis of the deposited data

Results flagged for a closer look

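For 11 members the E2 difference in induced cells was unequal to that in uninduced cells by the interaction test. The test was edgeR quasi-likelihood without replicate number, adjusted over all genes. With replicate number as a block it called 7 members higher and 8 lower, these 11 among them, against 14.7% of all genes. Each of the 11 is given as the log2 E2 difference in induced minus that in uninduced cells. Higher were SEMA3B (1.48, adjusted p = 1.28e-05), SEMA3F (0.93, adjusted p = 2.87e-07), EPHB2 (0.75, adjusted p = 0.0151), EPHA2 (0.72, adjusted p = 0.000658) and EFNB1 (0.69, adjusted p = 0.000111). Lower were EPHA4 (−1.21, adjusted p = 7.78e-05), EFNA1 (−0.82, adjusted p = 2.75e-06), SEMA3A (−0.72, adjusted p = 0.000387), SEMA3C (−0.71, adjusted p = 0.000829), EFNA5 (−0.45, adjusted p = 0.0294) and EPHB4 (−0.23, adjusted p = 0.0147). In each the 3 induced E2 libraries lay on one side of all 3 induced vehicle libraries. The interaction was called from these same libraries, so this adds no separate evidence, and the share over all genes was not counted. EPHA10, PLXDC1, PLXNC1, SEMA4F and SEMA6B, not called for E2 in induced cells, did not overlap there either. The EFNA5 value is the least stable of these, since leaving out any 1 of 7 libraries ended its call (adjusted p of 0.0565 to 0.0932).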

How the results depend on the processing

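None of the 57 called member differences changed direction under any alternative run. The calls lost numbered 5 with DESeq2, 1 with upper quartile scaling, 1 without the filter, 3 with numbers 2 and 3 alone, 3 of 46 with only the groups compared and 18 at an adjusted p under 0.01. None was lost with limma-voom, RLE scaling, the replicate block or, among the 56 it tested, the stricter filter. Leaving out 1 library lost 1 to 10 calls.

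For E2 in induced cells, members called lower came to 14 with the replicate block and to 14 with numbers 2 and 3 alone, against 8. At an adjusted p under 0.01, members called higher came to 5 against 9, and all genes called to 1528 against 2394. For doxycycline without E2, the block gave 9 members higher, 9 lower and 1456 genes in all, against 3, 4 and 554. Numbers 2 and 3 alone gave 5 members higher and 1082 genes. An adjusted p under 0.01 left 1 member lower and 296 genes, and only the groups compared left 2 members lower. Leave-one-out gave 1 to 4 members lower and 364 to 621 genes. For the interaction, all genes called came to 2143 with the block, 2105 with numbers 2 and 3 alone and 696 at an adjusted p under 0.01, against 1232. For E2 in uninduced cells, 1 gene was called with DESeq2 and 0 to 1 with 1 library left out, against 0. The block changed no other count of calls by more than 1.5 times. Upper quartile scaling, whose split of higher and lower calls is given with the counts, shifted the median of all genes by under 0.1 log2. All 46 pairwise member calls had the same direction on the deposited per-length fraction. In the 6 tested members averaging under 1 CPM (EFNA2, PLXDC1, PLXNC1, SEMA4G, SEMA5B and SEMA6C) the 95% interval of the E2 difference in induced cells was 1.09 to 1.94 log2 wide, against a median of 0.358 in the other 38.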

Other observations

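The libraries numbered 1, which carry the earlier file date, stood apart in many members. In 15 of the 44 tested members the library numbered 1 was the lowest of its group in all 4 groups (34.1%), against 10.7% of all genes tested, and in 3 members it was the highest in all 4 (6.82%, against 8.84% of all genes). The 15 include SEMA3E, EPHB2, EPHB3, PLXND1, PLXNA1 and SEMA3C, and the 3 are EPHA2, EPHB6 and PLXNA2. The libraries numbered 1 also held fewer counts than the other libraries of their group, 7889310 to 17965526 against 18997579 to 33326849, and the part of depth, lane or date in this pattern was not tested.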
